A study of Mus musculus with 28 samples.

Results

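The interaction of TPA and RGRN-305 in mouse ear skin was examined gene by gene. It is the log2 change between RGRN-305-treated and untreated ears under TPA, minus the same change without TPA. All 28 libraries of the series entered the contrast, and 18991 of the 55414 genes in the count table had enough reads to be tested. TPA (12-O-tetradecanoylphorbol-13-acetate) is a plant-derived activator of protein kinase C, and on mouse ears it gives an acute irritant dermatitis. RGRN-305 is an inhibitor of HSP90, the chaperone that keeps many kinases and other client proteins folded and active.

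The mice were wild-type female C57BL/6J animals aged 6 to 8 weeks, and each gave 1 library. The Vehicle group (n = 4) received acetone only, the RGRN-305 group (n = 4) received 1 mg of the inhibitor per ear followed by acetone, the TPA group (n = 10) received acetone followed by 2.5 µg TPA per ear, and the TPA+RGRN-305 group (n = 10) received both agents, the inhibitor first. Ears were taken 4 hours after the TPA or acetone challenge. The study describes 2 independent experiments, and the sources used here do not say which mouse belonged to which, so no term for the experiment could be fitted.

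Clients of HSP90 include kinases of growth factor and inflammatory signalling, and protein kinase C activation by TPA feeds into the ERK, AP-1 and NF-kB pathways in keratinocytes. The 4-group design addresses whether RGRN-305 changed a transcript by the same factor in resting and in stimulated skin. A negative interaction means that the inhibitor lowered the transcript more, or raised it less, in TPA-treated ears than in resting ears. It equally means that the log2 change after TPA was lower in inhibitor-treated ears, for example through a smaller rise. A positive interaction means the reverse, for example a smaller fall after TPA in inhibitor-treated ears. Normalized counts are read counts scaled to a common library size, and they are compared between groups for the same gene only.

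Libraries held 16751780 to 24716640 counts. Ear biopsies were sequenced. In every group at least 17 of 17 fibroblast, 16 of 16 skeletal muscle and 14 of 15 cartilage markers had reads, together with abundant epidermal keratins. Among the fibroblast, muscle and cartilage markers only Matn1, a cartilage gene, was at 0, and this in the Vehicle libraries. In such bulk tissue, fewer cells of a type and less RNA per cell cannot be told apart. Hair follicle keratins (Krt25, Krt27, Krt28, Krt71, Krt72 and Krt73) summed to more than 10 CPM (reads scaled to library total) in 7 libraries, namely 2 of RGRN-305, 1 of TPA and 4 of TPA+RGRN-305, against 0.849 to 4.7 CPM in the others. A TPA+RGRN-305 library, that of mouse 6, had 0.588 CPM of Xist, the X-inactivation transcript of female cells, against 370 to 802 CPM elsewhere, although all mice were described as female. Of the same group, mouse 10 had the highest counts of several inflammatory genes. Results were recomputed without these libraries.

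Gene expression responded to the inhibitor mainly where TPA had been applied. The interaction passed an adjusted p of 0.05 for 9651 genes, 50.8% of those tested, of which 4909 (25.8%) were above 0 and 4742 (25%) below. Differentially expressed genes of the interaction (interaction DEGs) were further required to have an absolute log2 value above 1 and a mean normalized count above 50, and 754 were above 0 (3.97%) and 1042 below (5.49%). The median absolute interaction of these 1796 DEGs was 1.39 on the log2 scale, and the median standard error (SE) over all genes was 0.155. At the other end, 6225 genes (32.8%) had a 95% confidence interval that lay wholly within a 1.5-fold difference in either direction. All adjusted p-values come from edgeR's quasi-likelihood test with Benjamini-Hochberg adjustment over all genes tested. For all 1796 DEGs the contrast had the same sign when formed from mean normalized counts instead of logarithms.

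The simple effects behind this contrast were of unequal size. In TPA-treated ears RGRN-305 changed 12457 genes (65.6%), 6264 upwards (33%) and 6193 downwards (32.6%), and by the same limits on size and level as above 511 (2.69%) and 876 (4.61%) were DEGs. In resting ears 0 genes (0%) passed the adjusted p with edgeR, where the lowest adjusted value was 0.273, and 1810 genes (9.53%) were below 0.05 before adjustment. DESeq2 called 19 genes there and limma voom called 0. This comparison rests on 4 against 4 mice, and its median SE of 0.131 compares with 0.0836 under TPA. TPA changed 12537 genes (66%) in ears without the inhibitor, 6000 upwards (31.6%) and 6537 downwards (34.4%). In ears that had received it, TPA changed 2668 genes (14%), 1656 upwards (8.72%) and 1012 downwards (5.33%).

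Across all tested genes, the effect of RGRN-305 without TPA and its effect with TPA had a Pearson correlation of -0.118, as a description over genes from groups that share no libraries. The effect of TPA without and with the inhibitor had a correlation of 0.66. Genes with an unadjusted p under 0.05 in resting ears and an adjusted p under 0.05 in TPA-treated ears moved in opposite directions more often than not. There were 478 genes (2.52%) higher with RGRN-305 in resting ears and lower under TPA, and 603 genes (3.18%) with the reverse order. In all these were 1081 genes (5.69%), against 186 (0.979%) with the same sign, of which 62 (0.326%) were higher and 124 (0.653%) lower in both settings. The share with opposite signs was 85.3%, and it ran from 76.7% without RGRN-305 mouse 1 to 89.1% without the libraries rich in hair keratins. The plot of both inhibitor effects shows a cloud that is long in the TPA direction and short in the other. This shape reflects the unequal size of the effects, and the genes with opposite signs are not marked in it.

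**Figure D1:**
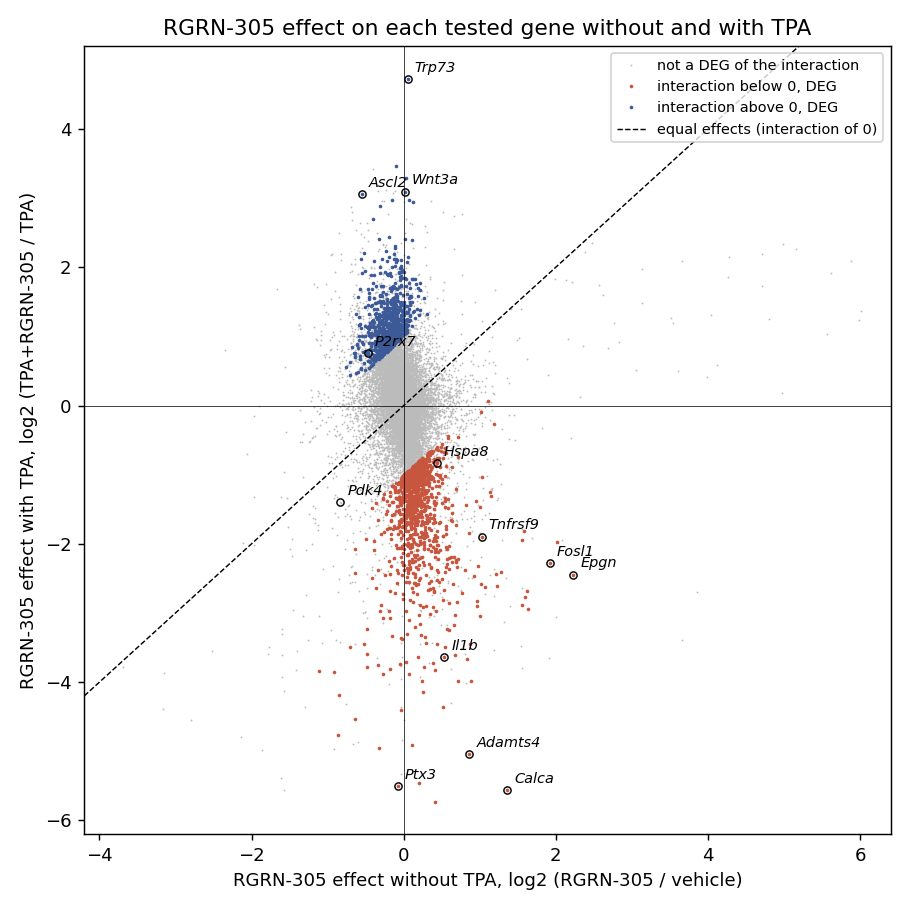
Effect of RGRN-305 without TPA (horizontal, log2 of RGRN-305 over Vehicle) against its effect with TPA (vertical, log2 of TPA+RGRN-305 over TPA) for the 18991 tested genes, with interaction DEGs below 0 in red and above 0 in blue, named genes circled, and a dashed line where the effects are equal. The 1042 red and 754 blue genes lie away from that line mostly by their vertical spread, with few genes far from 0 on the horizontal axis.

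How the counts were scaled mattered for the balance of directions. TMM scaling factors averaged 1.08, 1.06, 0.889 and 1.06 in Vehicle, RGRN-305, TPA and lastly TPA+RGRN-305. With library totals alone the median interaction of all genes was 0.3 instead of 0.013, a shift of 0.287, and 75.7% of the called genes were above 0 instead of 50.9%. Interactions close to 0 are therefore to be read relative to the scaling, whereas those of the strongest genes exceeded the shift many times over.

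The most negative interactions belonged to genes that TPA raised strongly. They are the 8 lowest protein-coding DEGs of the contrast, so their sizes describe the extreme and are not an independent test. Positions are on GRCm39. Calca (chr7:114230712-114235592) encodes the calcitonin gene-related peptide, a vasodilating neuropeptide, as well as calcitonin. Its normalized counts were 1.04, 2.17, 0 and 1.82 in the Vehicle mice and 4.16, 3.98, 3.46 and 1.95 in the RGRN-305 mice. TPA took it to between 136 and 263 (median 176), and TPA+RGRN-305 left it between 0 and 15.1 (median 2.22). The groups with and without the inhibitor did not overlap under TPA and overlapped without it. Over all tested genes, TPA and TPA+RGRN-305 mice did not overlap for 5166 genes (27.2%), and Vehicle and RGRN-305 mice for 984 (5.18%). The TPA mice did not overlap the Vehicle mice for 9007 genes (47.4%), and the TPA+RGRN-305 mice did not overlap the RGRN-305 mice for 993 (5.23%). The interaction was -6.92 (SE 1.1, adjusted p = 4.19e-06), although the fit rests on only 5 counts in all Vehicle libraries and 14 in all RGRN-305 libraries.

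Adamts4 (chr1:171077986-171089841) encodes an aggrecanase that cleaves matrix proteoglycans. Its counts were 10.4, 10.9, 12.3 and 7.27 in Vehicle and 13.5, 28.9, 13.8 and 18.5 in RGRN-305, so every inhibitor-treated mouse exceeded every vehicle mouse. Under TPA alone they ran from 2610 to 4570 (median 3630), and under TPA+RGRN-305 from 52.6 to 278 (median 100). The inhibitor effect on Adamts4 was -5.04 log2 units in TPA-treated ears (adjusted p = 6.38e-20), and its effect without TPA was 0.86 (unadjusted p = 0.221). The interaction was -5.91 (SE 0.76, adjusted p = 1.22e-07). Some induction was left, since TPA+RGRN-305 exceeded RGRN-305 by 2.55 log2 units (adjusted p = 4.67e-05).

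Ptx3 (chr3:66127331-66133226) encodes a long pentraxin, a secreted pattern recognition protein. It stood at 37.3, 51.1, 30.3 and 44.5 in Vehicle and at 47.8, 37.8, 31.2 and 38 in RGRN-305. The TPA mice had 2820 to 5220 (median 3730) and the TPA+RGRN-305 mice 40.4 to 274 (median 61.6). Resting groups overlapped and TPA groups did not, and the interaction was -5.43 (SE 0.62, adjusted p = 1.36e-08). The TPA response left under the inhibitor, 1.12, did not pass (adjusted p = 0.0615).

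Ifi202b (chr1:173790134-173810414), an interferon-inducible gene of the DNA-sensing p200 family, was the most abundant of the set. Vehicle mice had 157, 161, 155 and 171 normalized counts, RGRN-305 mice 266, 384, 190 and 218, TPA mice 10300 to 23100 (median 15500) and TPA+RGRN-305 mice 435 to 2270 (median 1030). Here no pair of groups overlapped, and the order was Vehicle, RGRN-305, TPA+RGRN-305, TPA. The interaction was -4.70 (SE 0.43, adjusted p = 1.92e-10), made up of -3.99 with TPA and 0.71 without it (unadjusted p = 0.0584). Ifi202b has close relatives in the same cluster. The study counted only uniquely aligned, unambiguous reads, so reads shared with those relatives would be missing from its counts.

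Acod1 (chr14:103284413-103294009) makes itaconate in activated myeloid cells. It had at most 4.35 counts in any mouse without TPA, 113 to 584 (median 275) with TPA and 0.918 to 16.5 (median 6.11) with TPA+RGRN-305. Its interaction of -5.66 had an SE of 2.05 (adjusted p = 0.0216). Mmp8 (chr9:7558457-7568487), the neutrophil collagenase, reached 5.18 counts at most without TPA, 134 to 367 (median 247) with TPA and 0 to 24.5 (median 5.06) with both agents. Its interaction was -5.02 (SE 1.46, adjusted p = 0.00465). Both genes had few reads in resting ears, and their calls were lost when 1 library was left out. Without RGRN-305 mouse 4, the adjusted p was 0.127 for Acod1 and 0.0556 for Mmp8, and without RGRN-305 mouse 2 it was 0.067 for Acod1.

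Nts (chr10:102317614-102326396) encodes neurotensin, a peptide of nerves and gut that also acts on mast cells. Counts were 0, 6.52, 3.78 and 8.18 in Vehicle, 12.5, 6.97, 6.92 and 0.975 in RGRN-305, 85.3 to 304 (median 196) in TPA and 1.65 to 16.5 (median 9.11) in TPA+RGRN-305. The TPA mice stood apart from all others, and the interaction was -4.87 (SE 0.82, adjusted p = 8.94e-06). Chil3 (chr3:106054870-106074880), the chitinase-like protein Ym1 of myeloid cells, behaved alike, with 24.2 to 348 (median 114) under TPA, 2.75 to 15 (median 7.77) under TPA+RGRN-305 and at most 7.97 in resting mice. Its interaction was -4.86 (SE 1.32, adjusted p = 0.00254). For Calca, Nts and Chil3 the response to TPA in inhibitor-treated ears was 0.11, 0.39 and 0.55 on the log2 scale, and none of these passed the adjusted p.

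The most positive interactions belonged to genes that TPA strongly lowered, again taken as the 8 highest protein-coding DEGs. Here too the contrast contains the TPA effect, so the fall with TPA follows largely from the choice. Most of these genes encode transcription factors or Wnt components. Trp73 (chr4:154140706-154224665), a p53 family transcription factor, had 379, 531, 418 and 442 counts in Vehicle and 425, 626, 338 and 446 in RGRN-305. TPA brought it down to between 2.31 and 24.1 (median 8.07), whereas TPA+RGRN-305 mice kept 171 to 532 (median 301). Under TPA the lowest inhibitor-treated mouse was well above the highest untreated mouse. The interaction was 4.67 (SE 0.39, adjusted p = 3.07e-11), and the remaining TPA effect under the inhibitor was -0.49 (adjusted p = 0.134). Its relatives Trp63, the master regulator of stratified epithelium, and Trp53 had interactions of 0.00 (adjusted p = 0.996) and -0.12 (adjusted p = 0.335).

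Ascl2 (chr7:142520564-142523006), a basic helix-loop-helix factor and Wnt target, was the gene of these 8 whose resting groups did not overlap. The Vehicle mice had 220, 210, 230 and 196 counts and the RGRN-305 mice 158, 133, 140 and 151, without overlap (log2 -0.55, unadjusted p = 0.00685). TPA left 5.77 to 21 (median 13.5) and TPA+RGRN-305 70.7 to 160 (median 109). Thus the same inhibitor treatment went with fewer transcripts in resting skin and with more in TPA-treated skin. The interaction was 3.61 (SE 0.26, adjusted p = 2.63e-12).

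Axin2 (chr11:108811169-108841609), a feedback inhibitor and a standard readout of Wnt signalling, was the most highly expressed gene of this set. It had 1580, 1630, 1450 and 1630 counts in Vehicle, 1030, 1450, 1620 and 1550 in RGRN-305, 93.8 to 175 (median 143) in TPA and 703 to 1350 (median 1090) in TPA+RGRN-305. Resting groups overlapped and TPA groups were far apart, with an interaction of 3.13 (SE 0.21, adjusted p = 7.39e-13). Wnt3a (chr11:59138859-59181584), a canonical Wnt ligand, had 136, 229, 175 and 201 counts in Vehicle and 160, 223, 164 and 201 in RGRN-305. It fell to between 13.8 and 44.3 (median 29) with TPA and stood at 185 to 297 (median 247) with both agents, so that the latter overlapped the resting groups. The interaction was 3.08 (SE 0.25, adjusted p = 1.58e-11).

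The other 4 genes of the set had the same shape. Tfap2e (chr4:126609799-126630038), a transcription factor of the AP-2 family, had medians of 17.2 in TPA and 220 in TPA+RGRN-305, and its interaction was 3.57 (SE 0.23, adjusted p = 5.74e-13). Mesp2 (chr7:79460475-79463187), a Notch-linked factor known from somite formation, had medians of 8.89 and 77.3, and its interaction was 3.26 (SE 0.24, adjusted p = 3.23e-12). Trpv6 (chr6:41597558-41613343), an epithelial calcium channel, had medians of 6.46 and 46.7, and its interaction was 3.18 (SE 0.29, adjusted p = 2.12e-10). Pif1 (chr9:65494442-65503249), a DNA helicase, had medians of 8.83 and 61.1, and its interaction was 3.11 (SE 0.3, adjusted p = 6.66e-10). In Mesp2 and Trpv6 a TPA effect remained under the inhibitor, at -0.96 (adjusted p = 2.17e-05) and -1.07 (adjusted p = 6.58e-05). The plot of the 16 extreme genes shows the TPA mice as the group that stands apart in each panel.

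**Figure D2:**
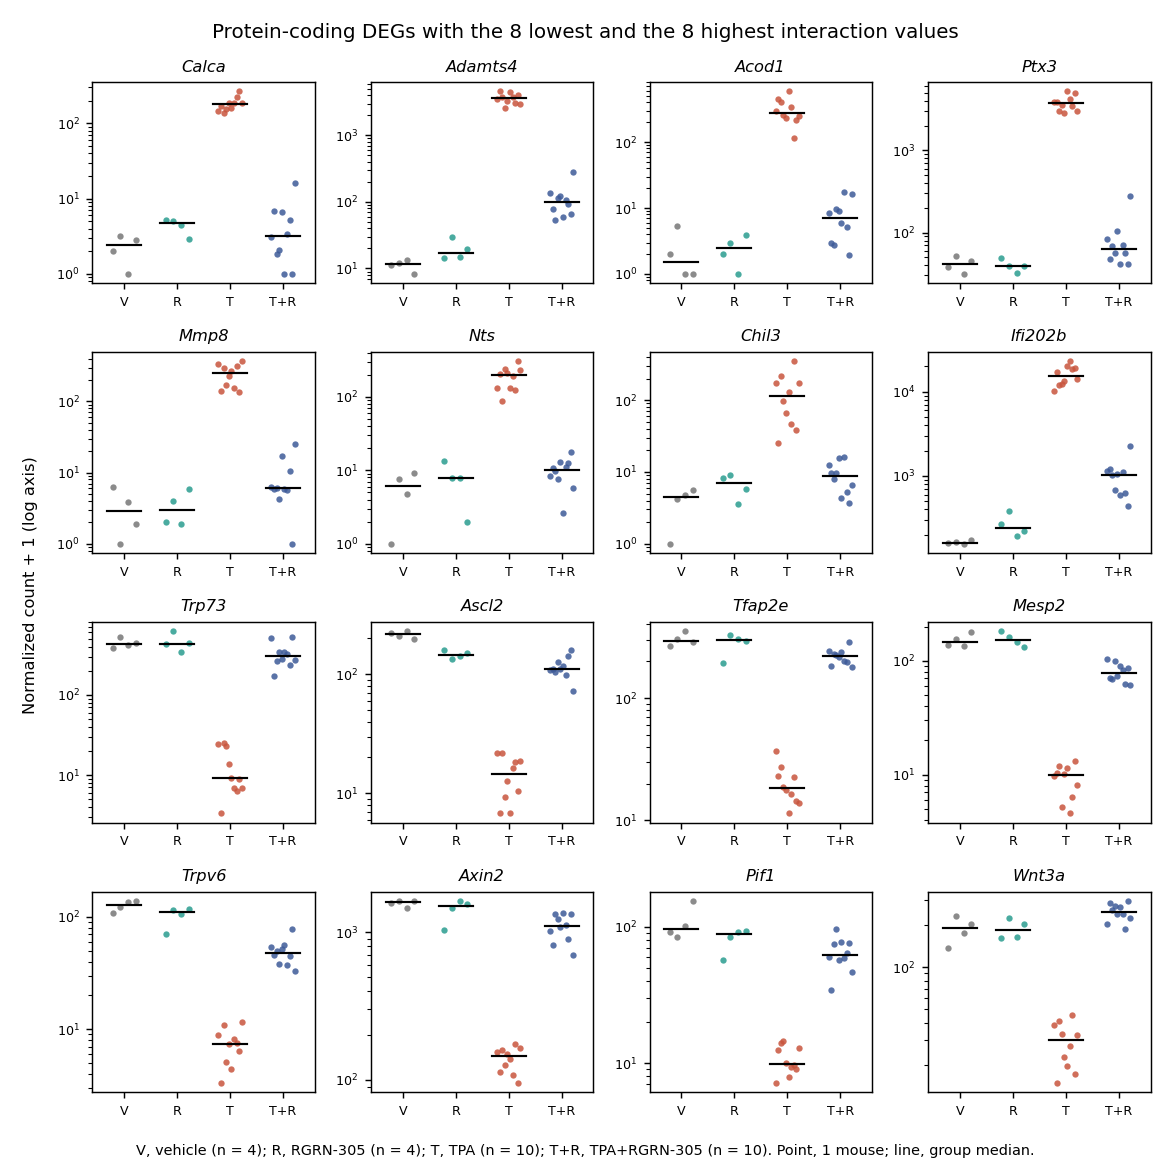
Normalized counts plus 1 (vertical, log axis) of the 8 lowest and 8 highest interaction DEGs in the 4 groups, 1 point per mouse with a line at the group median. In each panel the 10 TPA mice lie apart from the 10 TPA+RGRN-305 mice, above them for genes such as Adamts4 (medians 3630 and 100) and below them for genes such as Trp73 (8.07 and 301).

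A smaller class of genes had inhibitor effects of opposite sign in resting and in stimulated skin. The 6 named here have the smallest p-values of RGRN-305 versus Vehicle among such genes, so the direction is given by the choice and only the sizes are described. None of them passed the adjusted p in resting ears with edgeR, where all adjusted values were at least 0.273. The study's own DESeq2 comparison of these groups did report Tnfrsf9 and Fosl1, with Epgn and Rpl27-ps1, as differentially expressed. Fgfbp1 (chr5:44136200-44139151) encodes a secreted carrier that releases fibroblast growth factors from matrix. It had 1170, 1250, 1510 and 1420 counts in Vehicle and 2480, 2230, 1720 and 1930 in RGRN-305, a difference of 0.64 log2 units (unadjusted p = 2.37e-05). Under TPA it had 4910 to 6830 (median 5920), and with TPA+RGRN-305 2460 to 4110 (median 3120). Neither pair of groups overlapped, and the interaction was -1.53 (SE 0.15, adjusted p = 1.17e-09).

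Tnfrsf9 (chr4:150999019-151030559), the costimulatory receptor 4-1BB, had 41.5, 32.6, 26.5 and 48.2 counts in Vehicle and 89.4, 91.6, 61.4 and 62.4 in RGRN-305. It had 214 to 386 (median 289) in TPA and 56.9 to 103 (median 80.3) in TPA+RGRN-305. The inhibitor therefore brought resting and stimulated ears to nearly the same level, the TPA effect under RGRN-305 being 0.05 (adjusted p = 0.885). The interaction was -2.92 (SE 0.24, adjusted p = 3.24e-11). Hivep3 (chr4:119590981-119995242), a zinc finger protein that binds kappa B-like motifs, had 306, 285, 303 and 283 counts in Vehicle and 399, 747, 434 and 492 in RGRN-305. Medians were 3090 in TPA and 1200 in TPA+RGRN-305, and the interaction was -2.25 (SE 0.21, adjusted p = 2.21e-10).

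Fosl1 (chr19:5497575-5505974) encodes FRA-1, the AP-1 subunit that accumulates when ERK is active. Its counts were 80.9, 112, 268 and 71.8 in Vehicle and 549, 926, 155 and 399 in RGRN-305, so the groups overlapped through 1 mouse on each side. In TPA they were 6890 to 13000 (median 9730) and in TPA+RGRN-305 1050 to 4000 (median 1750). The inhibitor effect was 1.92 without TPA (unadjusted p = 9.28e-05) and -2.28 with it, and the interaction was -4.19 (SE 0.49, adjusted p = 2.51e-08). Hspa8 (chr9:40711630-40731039), the constitutive heat shock cognate HSC70, had 4350, 4820, 5040 and 4640 counts in Vehicle and 7500, 6020, 5690 and 6280 in RGRN-305. It had 9920 to 13400 (median 12000) in TPA and 5620 to 8370 (median 6690) in TPA+RGRN-305, and the interaction was -1.26 (SE 0.12, adjusted p = 3.88e-10). The 2 inhibitor-treated groups overlapped for Hspa8 and the TPA effect between them was 0.09 (adjusted p = 0.551).

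P2rx7 (chr5:122781942-122830400), the ATP-gated channel upstream of the inflammasome, was the mirror image. Its counts were 479, 463, 478 and 423 in Vehicle and 262, 345, 337 and 380 in RGRN-305, against 186 to 244 (median 205) in TPA and 275 to 396 (median 355) in TPA+RGRN-305. No mouse of a treated group crossed its untreated counterpart. The interaction was 1.23 (SE 0.13, adjusted p = 3.53e-09).

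Promoter sequences were looked up for these 3 sets in RefSeq windows of 300 bases around the start on GRCm38.p6, and 18 of the 22 genes had an entry. Adamts4, Pif1, Fosl1 and Hspa8 had none. The AP-1 motif TGANTCA and the short heat shock motif GAANNTTC were searched on both strands, and neither window shown holds the heat shock letters. Nts among the lowest genes and P2rx7 among the genes with opposite inhibitor effects hold the AP-1 letters, and they are shown because their interactions have opposite signs although both windows carry the same 7 bases. Capitals mark the match, and both windows are written 5′ to 3′ on the strand of the gene, which is minus for Nts (chr10:102490369-102490668) and plus for P2rx7 (chr5:122643677-122643976).
Nts: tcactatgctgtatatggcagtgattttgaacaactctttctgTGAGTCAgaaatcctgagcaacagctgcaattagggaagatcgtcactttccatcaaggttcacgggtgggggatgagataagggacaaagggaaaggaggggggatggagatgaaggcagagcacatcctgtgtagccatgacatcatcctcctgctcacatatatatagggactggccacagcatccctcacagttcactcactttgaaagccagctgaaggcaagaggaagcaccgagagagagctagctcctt
P2rx7: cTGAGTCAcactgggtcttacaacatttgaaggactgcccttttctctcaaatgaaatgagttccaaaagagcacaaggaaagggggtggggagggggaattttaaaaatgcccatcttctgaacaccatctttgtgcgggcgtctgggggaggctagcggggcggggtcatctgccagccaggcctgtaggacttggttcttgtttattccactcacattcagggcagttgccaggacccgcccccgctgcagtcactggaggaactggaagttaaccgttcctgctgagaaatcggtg
Of all 27025 promoter windows, 2144 (7.93%) held the AP-1 letters and 2149 (7.95%) the heat shock letters. The AP-1 letters were in 1 of 7 windows of the lowest genes, 0 of 7 of the highest and 1 of 4 of the opposite set, and the heat shock letters were in 0 of each. A match is a description of these letters and not of a bound site, and a window without one says nothing about the factor.

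For a few genes the TPA response itself changed sign. With a mean count above 50 and both TPA effects past the adjusted p, 104 genes (0.548%) had opposite signs, 27 (0.142%) higher with TPA alone and lower with TPA when the inhibitor was present and 77 (0.405%) the reverse, against 1995 genes (10.5%) with the same sign. Without RGRN-305 mouse 1 the number with opposite signs was 32, so most of these calls turn on that mouse. Iffo1 (chr6:125122154-125140691), an intermediate filament family member, had 495, 513, 381 and 435 counts in Vehicle, 229, 365, 351 and 414 in RGRN-305, 178 to 227 (median 194) in TPA and 329 to 545 (median 456) in TPA+RGRN-305. The TPA effect was -1.21 alone and 0.43 in the presence of the inhibitor (adjusted p = 0.0122). Its lowest RGRN-305 value, 229, came from mouse 1.

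Of the other 5 named genes, 4 were like Iffo1. Efcc1, a coiled-coil gene, had TPA effects of -1.20 and 0.55, Adam33, a membrane metalloprotease, -0.82 and 0.69, Sec16b, a factor of endoplasmic reticulum export, -0.99 and 0.41, and Tbx2, a T-box transcription repressor, -0.81 and 0.48, without and with RGRN-305. Mouse 1 was the lowest of the RGRN-305 group for each of them. Their interactions ran from 1.29 (SE 0.21, adjusted p = 3.83e-06) for Tbx2 to 1.76 (SE 0.26, adjusted p = 1.08e-06) for Efcc1. Ikzf4 (chr10:128466712-128505227), the lymphoid transcription factor Eos, ran the other way. It had 165, 167, 212 and 221 counts in Vehicle, 170, 148, 252 and 161 in RGRN-305, 320 to 496 (median 434) in TPA and 116 to 158 (median 127) in TPA+RGRN-305. TPA raised Ikzf4 by 1.15 alone and changed it by -0.50 with the inhibitor (adjusted p = 0.00641), with an interaction of -1.65 (SE 0.17, adjusted p = 3.52e-09). The TPA+RGRN-305 mice were below all Vehicle mice for this gene.

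**Figure D3:**
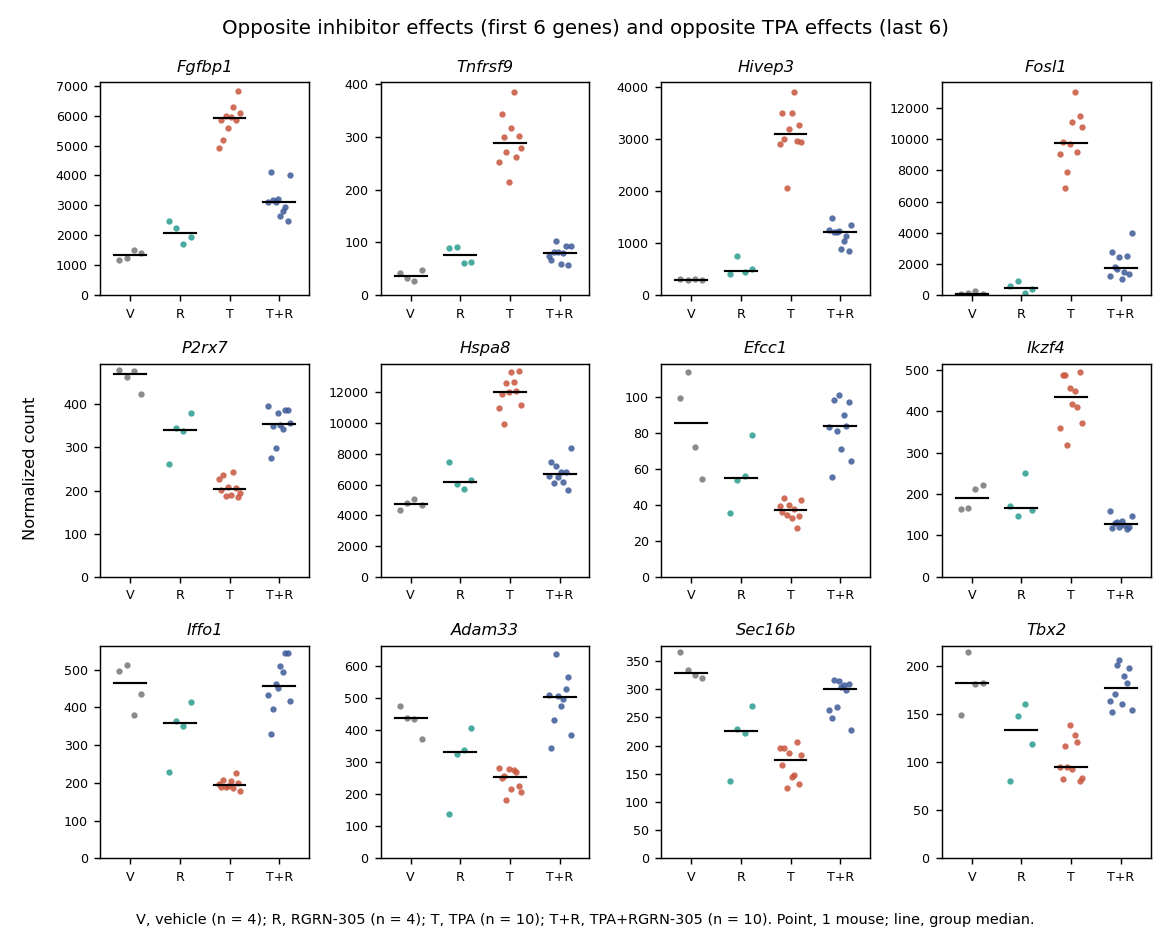
Normalized counts (vertical, linear axis from 0) of the 6 genes with opposite inhibitor effects, followed by the 6 with opposite TPA effects, 1 point per mouse and a line at the group median. For Fgfbp1 the RGRN-305 mice lie above the Vehicle mice while the TPA+RGRN-305 mice (median 3120) lie below the TPA mice (median 5920), and P2rx7 shows the reverse.

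For some genes the interaction had the same sign as the effect of TPA alone. Those named were Begain, a postsynaptic protein gene, with an interaction of 0.67 (adjusted p = 0.021), Dnmt3b, a DNA methyltransferase, 0.59 (0.00671), Gadl1, a decarboxylase gene, -0.51 (0.0236), Exph5, a vesicle transport gene, -0.50 (0.00944), and Duxbl1, a homeobox gene, 0.46 (0.0227). TPA alone changed none of them past the adjusted p, the effects running from -0.05 to 0.24, so the sign of that effect was itself not established. TPA with the inhibitor changed all 5, the effects running from -0.55 to 0.70. Each interaction lost its call under at least 1 alternative, such as the omission of RGRN-305 mouse 1 for Begain (adjusted p = 0.0791) or of the libraries rich in hair keratins for Dnmt3b (0.0578).

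Some genes followed the inhibitor in the same direction with and without TPA. The 5 described were chosen for that pattern and for an interaction that did not pass, so the intervals show how large a difference between the settings remains possible. Abca4, a retinoid transporter of the ABC family, had 87.1, 80.5, 65.3 and 75.4 counts in Vehicle, 47.8, 53.8, 43.3 and 41 in RGRN-305, 73.9 to 116 (median 101) in TPA and 36.8 to 69.8 (median 55) in TPA+RGRN-305. With RGRN-305 it was lower by 0.73 without TPA (unadjusted p = 7.71e-05) and by 0.87 with TPA (adjusted p = 3.1e-09), without overlap in either setting. The interaction was -0.14, with a 95% interval from -0.52 to 0.25. Pdk4, the kinase that restrains pyruvate oxidation, had 549, 387, 380 and 396 counts in Vehicle and 265, 249, 209 and 238 in RGRN-305. Its medians were 617 in TPA and 236 in TPA+RGRN-305, and the interaction of -0.57 had an interval from -1.24 to 0.1, which still allows a larger effect under TPA.

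Cd33, a sialic acid-binding receptor of myeloid cells, was lower by 0.55 without and 0.76 with TPA, and its interaction was -0.21 (-0.61 to 0.2). Arhgap4, a GTPase-activating protein, had an interaction of 0.05 (-0.38 to 0.49). Lrrc30, a leucine-rich repeat gene, was the gene of this class that was higher with RGRN-305, by 0.77 and 0.62, with an interaction of -0.15 (-0.93 to 0.62). With intervals this wide, differences of 1.5-fold between the settings are not excluded for Pdk4, Lrrc30 or Cd33.

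HSP90 itself is the target of the drug, and the gene of its inducible cytosolic isoform is controlled by the heat shock factor HSF1. Hsp90aa1, the inducible cytosolic isoform, had 913, 1020, 1010 and 1010 counts in Vehicle and 1540, 1260, 1030 and 1060 in RGRN-305, so all inhibitor-treated mice were above all vehicle mice by a small margin (log2 0.31, unadjusted p = 0.00847). TPA raised it to between 2200 and 2970 (median 2620), and TPA+RGRN-305 mice had 1120 to 1710 (median 1280), overlapping the RGRN-305 group. The interaction was -1.30 (SE 0.13, adjusted p = 9.14e-10). Hsp90ab1, the constitutive cytosolic isoform, ran at 25900 to 27200 in Vehicle, 26600 to 29100 in RGRN-305, 29300 to 33300 in TPA and 24000 to 29200 in TPA+RGRN-305. Its interaction was -0.35 (SE 0.07, adjusted p = 0.000176) and became -0.06 (adjusted p = 0.422) with library totals. Hsp90b1, the isoform of the endoplasmic reticulum, and Trap1, that of mitochondria, had interactions of -0.12 (95% interval -0.3 to 0.06) and 0.07 (-0.08 to 0.22).

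Of the 18 HSP90 isoforms and co-chaperones, 7 (38.9%) had an interaction below 0 and 2 (11.1%) above, against 25% and 25.8% of all tested genes. Intervals lay within 1.5-fold for 13 of these 18, against 32.8% of all tested genes. With library totals 4 were below 0 and 4 above. The largest negative values after Hsp90aa1 were those of Ptges3, the co-chaperone p23, at -0.75, and Stip1, the HSP70 to HSP90 adaptor HOP, at -0.57. The co-chaperone ligase Stub1 (0.37) and the immunophilin Fkbp4 (0.23) were above 0. Among 25 genes of the HSF1 response, 15 (60%) were below 0 and 3 (12%) above. Dnajb1, an HSP40 partner, had means of 1890, 2350, 7950 and 2910 in Vehicle, RGRN-305, TPA and lastly TPA+RGRN-305 and an interaction of -1.76 (SE 0.13), and the HSP70 co-factor Bag3 had -1.24 (SE 0.09). Hsf2, another heat shock factor, went the other way at 1.23 (SE 0.13). TPA lowered it from 731 to 242 and both agents together left 537.

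The stress-inducible HSP70 genes stood apart from this pattern. Hspa1a had means of 2340, 3000, 2370 and 2950 in Vehicle, RGRN-305, TPA and lastly TPA+RGRN-305. Hspa1b had 6990, 8970, 6930 and 9270. Their interactions were -0.04 (adjusted p = 0.783) and 0.06 (adjusted p = 0.671), RGRN-305 adding 0.36 without TPA and 0.32 or 0.42 with it, while TPA alone gave 0.02 and -0.01. Both were singled out after their values were seen. As near-identical neighbours they can share reads, which a count of uniquely aligned reads leaves out, so the counts of the pair are uncertain one by one.

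**Figure D4:**
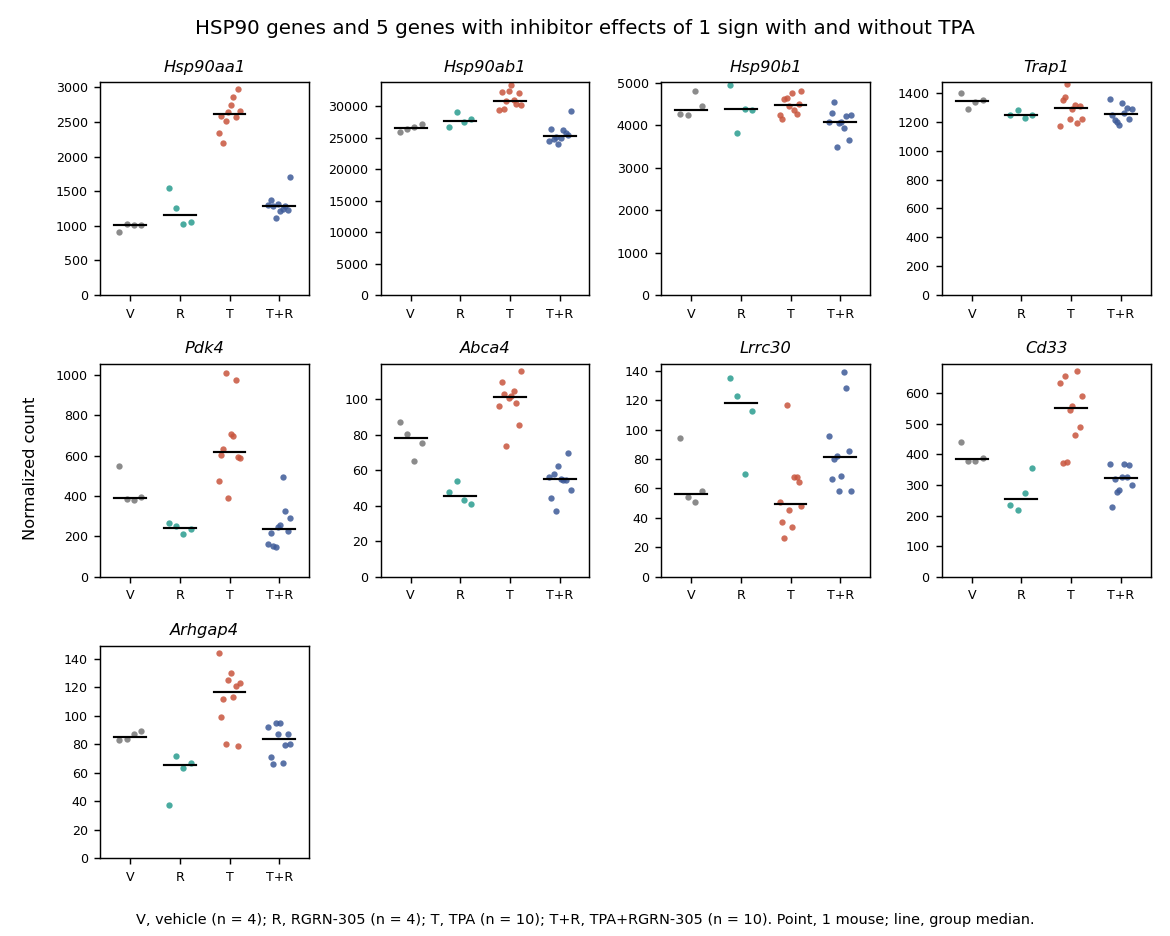
Normalized counts (vertical, linear axis from 0) of the 4 HSP90 family genes and of 5 genes with similar inhibitor effects in both settings, 1 point per mouse with a line at the group median. Hsp90aa1 is highest in the TPA mice (median 2620 against 1280 in TPA+RGRN-305), with both inhibitor-treated groups just above Vehicle, Hsp90b1 and Trap1 have interactions of -0.12 and 0.07, and Abca4 is lower in each inhibitor-treated group than in its control.

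The cytokine genes that the study names in mouse ear differed in how firmly their interaction could be measured. Tnf had 44.6, 71.8, 139 and 44.5 counts in Vehicle, 77, 66.7, 55.4 and 103 in RGRN-305, 213 to 479 (median 341) in TPA and 92.7 to 223 (median 163) in TPA+RGRN-305. The TPA groups overlapped slightly and the interaction was -1.16 (SE 0.34, adjusted p = 0.00488). It was -0.96 (adjusted p = 0.06) without the libraries rich in hair keratins. Il1b had 11.4 to 47.3 in Vehicle, 4.33 to 73.8 in RGRN-305, 3010 to 4300 (median 3400) in TPA and 98.2 to 858 (median 263) in TPA+RGRN-305, with an interaction of -4.17 (SE 0.83, adjusted p = 9.58e-05). For Il6 the contrast did not pass, with 15 raw counts in all Vehicle and 10 in all RGRN-305 libraries. Il6 stood at 1520 to 2040 (median 1810) in TPA and 21.1 to 210 (median 53.6) in TPA+RGRN-305, and its interaction was -4.27 (SE 1.93, adjusted p = 0.0652). DESeq2 and limma voom called Il6, with adjusted p-values of 1.76e-06 and 0.00305, and so did edgeR without TPA+RGRN-305 mouse 10 (-4.72, adjusted p = 0.00148).

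Epgn, the EGFR ligand epigen, had 7.26, 12, 30.3 and 14.5 counts in Vehicle and 86.3, 125, 23.4 and 76.1 in RGRN-305, against 1610 to 2860 (median 2010) in TPA and 127 to 667 (median 321) in TPA+RGRN-305. The inhibitor effect was 2.23 without TPA (unadjusted p = 0.000616) and -2.45 with it, and the interaction was -4.67 (SE 0.6, adjusted p = 1.16e-07). Of the 4 resting inhibitor-treated mice, 3 were above all vehicle mice. Rpl27-ps1 is a ribosomal protein pseudogene, and any reads shared with its parent gene would not have been counted. It had an interaction of -1.11 (SE 0.3, adjusted p = 0.00229) that arose in resting ears, where RGRN-305 differed by 1.02 (unadjusted p = 0.00033). Under TPA the inhibitor effect was -0.09 (adjusted p = 0.637). Il17a and Defb4 had too few reads to be tested, with 0, 0, 67 and 2 reads and 5, 4, 36 and 19 reads in all libraries of Vehicle, RGRN-305, TPA and lastly TPA+RGRN-305.

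Gene lists of pathways were then described by how many members passed in each direction, to be read against the 25.8% higher and 25% lower of all genes and a median interaction of 0.01. Of 24 chemokine genes tested, 15 were lower and 0 higher, with a median of -2.16. Cxcl2, a neutrophil attractant, had means of 12.6, 10.5, 2260 and 168 in Vehicle, RGRN-305, TPA and lastly TPA+RGRN-305 and an interaction of -3.42 (SE 0.87). Ccl20, which draws CCR6-bearing cells, had 44.8, 140, 6440 and 1840 and -3.39 (SE 0.61), and Ccl2, the monocyte attractant, 88.8, 118, 4410 and 584 and -3.30 (SE 0.52). Cxcl12 and Ccl8, which TPA hardly moved (0.05 and 0.12), had interactions of 0.06 (SE 0.11) and 0.05 (SE 0.31). Of 27 inflammatory cytokine genes 16 were lower and 0 higher (median -1.56), among them Il10, an anti-inflammatory cytokine (-3.84, SE 0.95), and Il1rn, the natural antagonist of interleukin 1 (-1.55, SE 0.14). The lower members thus include genes that restrain inflammation.

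Transcription factors and feedback genes downstream of TPA were mostly below 0. Of 19 NF-kB subunits and feedback genes, 16 were lower and 1 higher, with a median of -1.39. Bcl3, a nuclear NF-kB co-factor, had -3.47 (SE 0.47), and Tnfaip3, the feedback inhibitor A20, had means of 442, 721, 10500 and 2080 and -3.04 (SE 0.29). The member above 0 was Ikbkg, the IKK scaffold NEMO, at 0.58 (SE 0.09). All 12 immediate early genes of the EGR and NR4A list were lower (median -1.61), led by Egr4 (-3.50, SE 0.8) and Nr4a3 (-3.40, SE 0.35), the latter with means of 173, 234, 5520 and 703.

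AP-1 subunits were uneven. Of 13, 9 were lower and 0 higher. Next to Fosl1, Maff, a small MAF protein, had -2.26 (SE 0.19) and Batf, a factor of lymphoid and myeloid cells, -2.20 (SE 0.48). Fos and Fosb, the earliest subunits, had 0.29 and -0.07 with SEs of 0.82 and 0.76, which leaves large effects in either direction possible, and Jund had -0.18 (SE 0.17). ERK feedback genes showed a similar split, with 10 of 18 lower and 1 higher (median -0.85). The phosphatase genes Dusp6 (-2.25, SE 0.25), Dusp5 (-2.18, SE 0.17) and Dusp2 (-2.14, SE 0.29) led. Spry1, an ERK pathway inhibitor, and Etv4, an ETS factor, were induced by TPA by 0.93 and 1.44 and had interactions of only -0.07 (SE 0.18) and -0.09 (SE 0.19). With the inhibitor TPA still raised Spry1 by 0.87 and Etv4 by 1.34.

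Of 15 EGFR family ligands, receptors and regulators, 9 were lower and 2 higher. Besides Epgn, the ligand genes Hbegf (means 206, 403, 12600 and 1690, interaction -3.86, SE 0.36), Areg (10.7, 21.8, 1040 and 146, -3.79, SE 0.74), Ereg (-2.41, SE 0.24) and Tgfa (-2.37, SE 0.17) were lower, as was the feedback inhibitor Errfi1 (-2.76, SE 0.24). Egfr itself was lower by less (-0.66, SE 0.11). Egf (0.60, SE 0.23) and Erbb2 (0.34, SE 0.1) were above 0.

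Of 20 Toll-like receptor and inflammasome genes 9 were lower and 5 higher, the latter share being close to that of all genes, and with library totals 8 were lower and 10 higher. Nlrp3, the inflammasome sensor, had means of 19.7, 26, 978 and 73.9 and an interaction of -4.11 (SE 0.43), and Cd14, the lipopolysaccharide co-receptor, had -2.72 (SE 0.23). Pycard, the adaptor ASC, went up instead, at 1.12 (SE 0.13). TPA lowered it from 1230 to 491, and TPA+RGRN-305 mice had 1180. Of 24 interferon-stimulated genes, 13 were lower and 1 higher (median -0.64), with Oas3 (-2.52), Oasl1 (-2.27) and Oasl2 (-1.71) leading.

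Wnt genes had the largest share above 0 of the pathway lists. Of 32 genes 23 were higher and 3 lower, with a median of 0.75. Apart from Ascl2, Axin2 and Wnt3a, the Wnt target Sp5 had 2.94 (SE 0.43), Rnf43, which removes Wnt receptors, 2.03 (SE 0.16), the receptor gene Fzd10 1.73 (SE 0.17) and Wnt10b 1.39 (SE 0.16). The lower members were Wnt10a (-0.51), the transcription factor Tcf7 (-0.43) and Ctnnb1, which encodes beta-catenin (-0.18). With library totals the Wnt list had 26 higher and 0 lower. Notch and p53 family genes gave 8 higher and 3 lower of 17, with Jag2 at 1.24 and Notch1 at 0.75 against the ligand Dll1 at -1.45.

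Cell cycle genes were also mostly above 0, with 17 of 26 higher and 2 lower (median 0.66). TPA lowered Plk1, a mitotic kinase, from a mean of 154 to 45.4, and TPA+RGRN-305 mice had 113 (interaction 1.55, SE 0.2). The lower genes were Rrm2, a ribonucleotide reductase subunit (-1.21), and Pcna, the replication clamp (-0.63), which TPA raised. In the circadian clock list 11 of 18 were higher and 5 lower. The output genes Dbp (2.30, SE 0.19), Per3 (1.95, SE 0.16) and Nr1d1 (1.39, SE 0.14) were above 0, and Nfil3, the repressor that opposes Dbp, was below (-2.81, SE 0.27). TPA alone lowered Dbp from 3110 to 539, and mice with both agents had 2290.

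All 25 ribosome biogenesis genes were lower (median -0.97), including Myc (-1.72, SE 0.18) and the rRNA processing factors Utp4 (-1.56) and Nop58 (-1.49). Their inhibitor effect was -0.85 at the median with TPA and 0.17 without. In polyamine metabolism 9 of 13 were lower and 2 higher, with the rate-limiting Odc1 at -2.79 (SE 0.22; means 1780, 2640, 20300 and 4360), Smox, a spermine oxidase, at -2.89 and Paox, an acetylpolyamine oxidase, at 1.29. Cholesterol synthesis gave 12 lower and 2 higher of 19, with Insig1, which restrains sterol synthesis, at -1.21. In oxidative phosphorylation 21 of 23 genes had intervals within 1.5-fold, and 4 were lower and 0 higher, a share below that of all genes. With library totals the list had 9 higher and 0 lower.

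Stress response lists had many small negative values. Of 24 genes of the unfolded protein and ATF4 response, 17 were lower and 4 higher (median -0.46), with Slc7a11, the cystine transporter, at -2.00 and Atf3 at -2.09. Of 20 NRF2 targets, 12 were lower and 2 higher (median -0.46), with Srxn1, a sulfiredoxin, at -3.00 (SE 0.22). With library totals these counts of lower genes were 11 and 8. Of 17 genes in the p53 list, 8 were lower, among them Btg2 (-2.30) and Pmaip1 (-2.02). Another 5 were higher, a share close to that of all genes, among them Bbc3, the pro-apoptotic PUMA (1.78), and Sesn1 (1.57). The metallothionein genes Mt1 (-2.49, SE 0.2) and Mt2 (-2.74, SE 0.21) were lower within a list of glucocorticoid targets in which 6 of 15 were lower and 1 higher, and Nr3c1, the receptor itself, was the 1 higher (0.53). In the aryl hydrocarbon receptor list 5 of 17 were higher and 4 lower, close to the shares of all genes, and 9 and 2 with library totals. Its extremes were Tiparp (-2.52) and Cyp1b1 (-1.61) below 0 and Ugt1a6a (2.67) and Ahrr (2.00) above.

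Of 30 genes of the cornified envelope and late differentiation, 17 were lower and 0 higher (median -1.02). The lower ones included the small proline-rich genes Sprr2h (means 51.3, 95.2, 3400 and 312, interaction -4.32, SE 0.49) and Sprr1b (-3.68, SE 0.44) and the late cornified gene Lce3d (-3.70, SE 0.56), all of which TPA raised. Flg, which encodes filaggrin, had 0.03 (SE 0.17), and the LCE1 genes Lce1a1, Lce1a2, Lce1b and Lce1c had -0.11 to 0.01. Of 14 epidermal keratins, 6 were lower and 1 higher, and with library totals 3 were lower and 4 higher. Krt16, a keratin of wounded and psoriatic skin, had means of 679, 1370, 21400 and 3590 and -3.59 (SE 0.38), and Krt6b had -2.04. Krt15, a keratin of basal and bulge stem cells, was the higher one at 0.99 (SE 0.13), and Krt5, Krt10, Krt1 and Krt2 did not pass.

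Antimicrobial and matrix genes had the most negative medians of the pathway lists. Of 13 antimicrobial genes tested, 10 were lower and 0 higher (median -2.41), including Saa3 (-3.94), S100a9 (-3.62) and S100a8 (-3.30). Of 24 genes of matrix proteases and the plasminogen system, 18 were lower and 0 higher (median -2.34). Mmp1b (-4.31) followed Adamts4 and Mmp8, and Timp1, an inhibitor of metalloproteases (means 71.6, 75.5, 1860 and 126), had -3.95 (SE 0.36). The fibroblast gelatinase Mmp2 (0.09) and the inhibitor Timp2 (0.02) did not pass. In prostaglandin synthesis 7 of 19 were lower and 3 higher, with Ptgs2, the inducible cyclooxygenase, at -2.46 (SE 0.58), Ptges at -2.48 (SE 0.23) and the degrading enzyme Hpgd at 0.86 (SE 0.17).

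**Figure D5:**
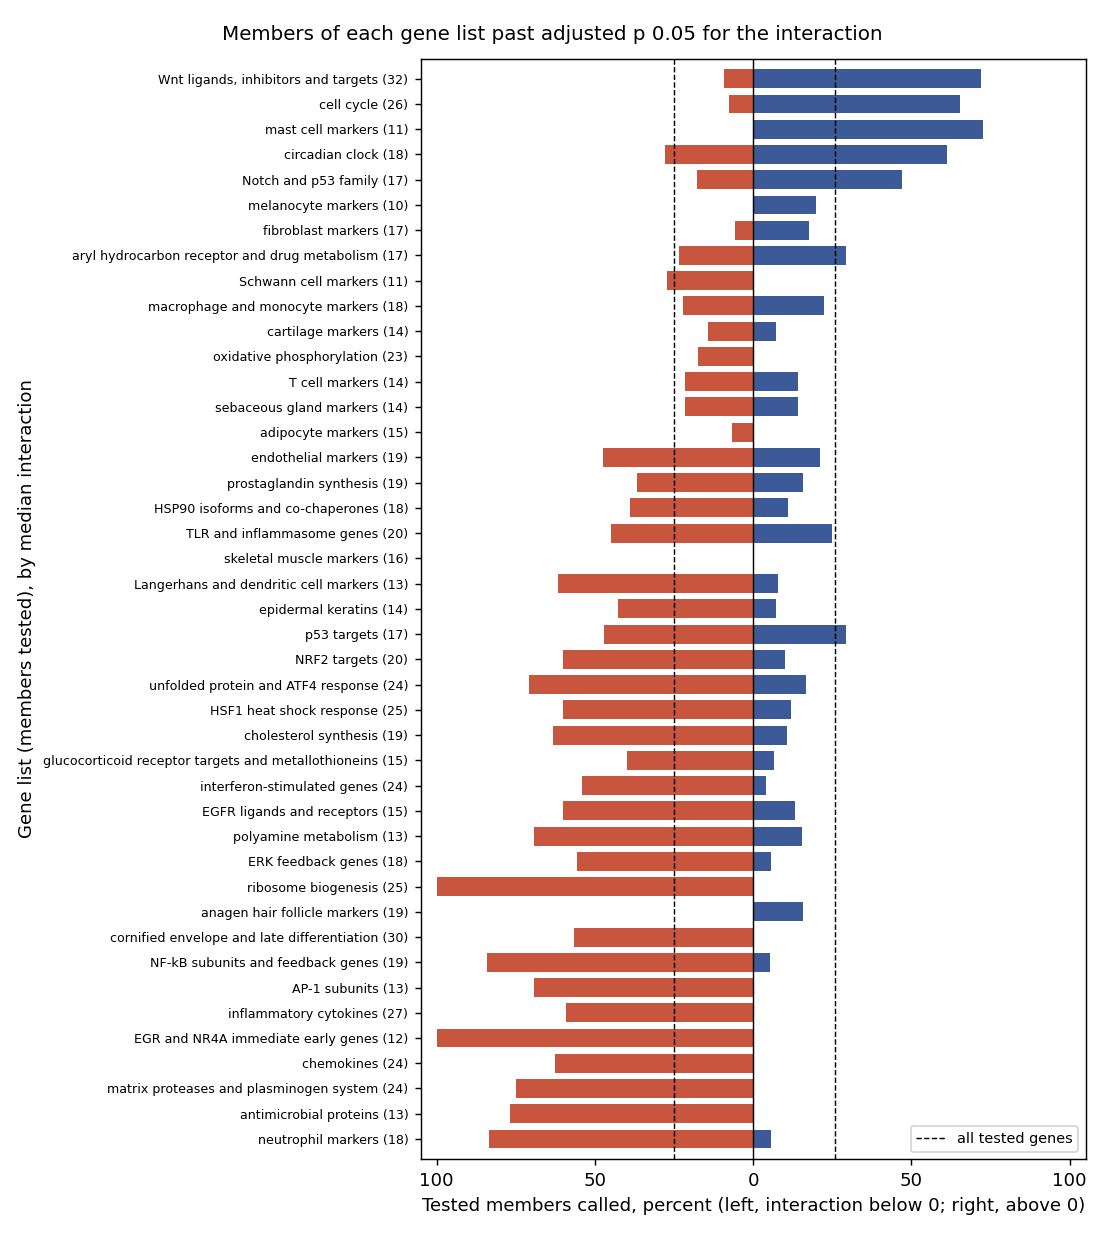
Percent of tested members with an interaction below 0 (left) and above 0 (right) past the adjusted p for each gene list, with dashed lines at the 25% lower and 25.8% higher of all tested genes. Ribosome biogenesis (25 of 25) and the EGR and NR4A genes (12 of 12) reach the left edge, Wnt genes (23 of 32) reach farthest right among the pathway lists, and several cell type lists stay short on both sides.

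Cell type lists differed in whether their markers moved with these lists. Of 18 neutrophil markers tested, 15 were lower and 1 higher, with a median interaction of -3.67. Their summed normalized count was 3070 to 3480 in Vehicle, 2770 to 3700 in RGRN-305, 11200 to 15400 in TPA and 2960 to 4840 in TPA+RGRN-305. S100a8, S100a9, Trem1 and Mmp8 had Vehicle medians of only 18, 32.2, 0.973 and 1.87. The Vehicle sum thus came mostly from other members, whose cells of origin were not tested, and is not a measure of resting neutrophils. The defining genes Ly6g and Cxcr1 were at 0 in all Vehicle libraries and were below the filter, and Ly6g was at 0 in RGRN-305 as well. S100a8, S100a9, Mmp8 and Acod1 stand in this list and in lists above. The part of neutrophils in the negative interactions of the chemokine, cytokine, antimicrobial and protease lists was not tested. G0s2, the 1 marker above 0 (0.63), is also expressed in fat.

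Endothelial markers gave 9 lower and 4 higher of 19. The adhesion molecules Selp (-3.73), Sele (-3.17) and Icam1 (-2.70) led, whereas the general endothelial marker Pecam1 had -0.12 (SE 0.09), and Egfl7 (1.18) and Cldn5 (0.72) were above 0. Their sum was 6970 to 8460 in Vehicle, 7140 to 7990 in RGRN-305, 17500 to 24000 in TPA and 7760 to 11400 in TPA+RGRN-305. Mast cell markers were the reverse, with 8 of 11 higher, led by Ms4a2, a chain of the IgE receptor (1.63). Their sum was 5740 to 5970 in Vehicle, 4510 to 6020 in RGRN-305, 3900 to 5250 in TPA and 4890 to 6240 in TPA+RGRN-305. Langerhans and dendritic cell markers had 8 of 13 lower, with Cd207, the Langerhans cell lectin, at -2.47, and 1 higher, the class II transactivator Ciita, at 1.99.

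Macrophage and monocyte markers had 4 higher and 4 lower of 18, fibroblast markers 3 higher and 1 lower of 17, adipocyte markers 0 higher and 1 lower of 15 and skeletal muscle markers 0 and 0 of 16. Sums of skeletal muscle markers varied within groups, from 132000 to 257000 in TPA+RGRN-305, so small differences there were not detectable. With library totals fibroblast markers had 12 higher and 0 lower, macrophage and monocyte markers 7 and 3, and endothelial markers 7 and 8. Of 19 anagen hair follicle markers 3 were higher, the follicle regulators Foxn1 (2.15), Hoxc13 (1.76) and Msx2 (1.61). The other 16 did not pass, and the median of the list was -1.02, with SEs of 0.74 to 4.05 for the hair keratins. Their sum ran from 738 to 814 in Vehicle, 662 to 2190 in RGRN-305, 387 to 2450 in TPA and 634 to 5290 in TPA+RGRN-305. Without those 7 libraries, neutrophil markers had 10 lower, inflammatory cytokines 11 lower, Langerhans and dendritic cell markers 5 lower and cell cycle genes 12 higher. Langerhans and dendritic cell markers also had 5 lower with library totals.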

How the data were processed

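RNA-seq was done on ear biopsies of 28 mice in 4 groups, 1 library per mouse. The authors deposited raw gene counts made with Subread (version 2.10.3 in the submitters' processing notes) against GRCm39, and the count columns were used as deposited. The annotation they counted on is not given in the sources used here. Gene names were taken from GENCODE mouse release 39, which 54749 of the 55414 genes matched, and the 665 others held 0.0567% of the counts. Totals were 16751780 to 24716640 counts per library, and 0 sample columns were left out. Counting intervals of this depth cover sampling of reads only.

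Counts were filtered (filterByExpr, minimum count 10, minimum total 15), scaled by TMM and fitted with 1 mean per group over all 28 libraries in edgeR 4.0.16 (R 4.3.3) by the quasi-likelihood F-test. The spread is that between mice, across experiments that could not be told apart. Interaction and simple effects were contrasts of this fit with Benjamini-Hochberg adjustment over 18991 genes, and the SE was the absolute log2 value over the square root of F. Libraries of a group differed by more than sampling noise (chi-square per gene 5.29 to 34.1 over 102 pairs).

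Named genes were the 8 highest and 8 lowest protein-coding interaction DEGs (without genes at 3 counts or fewer in a group), up to 6 each with opposite inhibitor effects, opposite TPA effects, an enlarged TPA effect or similar inhibitor effects, the HSP90 genes and genes the study names, and up to 3 members of each of 43 gene lists. Some genes that this rule names are not reported here. Other list members named in the text were chosen after their values were seen. The members and lists were chosen with earlier results of these data known.

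Alternatives were DESeq2 1.42.0, limma 3.58.1 voom with a weight per group, RLE factors, library totals, no filter, no mean limit, glmTreat, the linear scale, a replicate block, each Vehicle and RGRN-305 mouse left out, and no library with low Xist or with hair keratins above 10 times the median. Omission of libraries above 10 CPM of hair keratins, of TPA+RGRN-305 mouse 10, and list counts with library totals were added after seeing the data.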

Additional observations from a re-analysis of the deposited data

Results flagged for a closer look

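Of 168 sets of values, each a named gene in a group, 17 had a mouse whose distance from its nearest neighbour was unusually large for the range of its group, a rule that chance meets in about 1 of 20 sets. TPA+RGRN-305 mouse 10 accounted for 8 of them. It was the highest of its group for Calca (15.1 normalized counts, next 5.76), Adamts4 (278, next 134), Ptx3 (274, next 104), Ifi202b (2270, next 1190), Il1b (858, next 383), Il6 (210, next 69.5), Hsp90aa1 (1710, next 1380) and Hsp90ab1 (29200, next 26300). Without this mouse 4936 genes had an interaction above 0 and 4814 below.

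The other 9 were spread over mice. In TPA+RGRN-305, mouse 9 was highest for Trpv6 (77.1, next 55.3) and mouse 7 for Pdk4 (493, next 325). Vehicle mouse 1 was highest for Pdk4 (549, next 396), Lrrc30 (94.4, next 58.2) and Cd33 (440, next 388) and lowest for Hsp90aa1 (913, next 1010). TPA mouse 4 was highest for Lrrc30 (117, next 68) and TPA mouse 8 for Epgn (2860, next 2190). RGRN-305 mouse 3 was lowest for Il6 (0.865, next 2.93).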

How the results depend on the processing

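Of 798 values of 42 named genes under alternative settings, 778 kept their direction and side of the threshold. Most of the 42 were chosen by the size of an interaction or a p-value in these data, so the choice favoured such stability. The 5 genes whose interaction had the same sign as the effect of TPA alone are not among the 42. Each of these 5 lost its call under at least 1 setting. With library totals in place of TMM, 8390 genes were above 0 and 2687 below (DEGs 1570 and 662), 180 genes had TPA effects of opposite sign, and Abca4 (0.15), Lrrc30 (0.14), Cd33 (0.08) and Hsp90b1 (0.17) turned positive. Without a mean limit 1482 DEGs were above 0, and glmTreat left 232 above and 550 below. Opposite TPA effects numbered 66 without the low-count filter and 62 with voom. For RGRN-305 without TPA, DESeq2 called 19 genes and edgeR 12 without libraries above 10 CPM of hair keratins, where Cd33 was 0.07. On the linear scale Arhgap4 was -4.6 normalized counts. Leaving out 1 mouse gave -0.11 to 0.15, the lowest without RGRN-305 mouse 1. The cause of these changes was not tested.

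Leaving out 1 mouse at a time (each Vehicle and RGRN-305 mouse, and TPA+RGRN-305 mouse 10) gave 4634 to 4936 genes above 0, 4465 to 4814 below, 680 to 818 DEGs above, 1010 to 1112 below, 32 to 119 opposite TPA effects, 12460 to 12722 calls for TPA+RGRN-305 versus TPA (12176 without mouse 6), and 0 to 0 for RGRN-305 versus Vehicle. The replicate block gave 4747 above and 4565 below, DEGs 769 and 1050, and 33 opposite TPA effects. Of 22 same-numbered pairs, 6 had correlated deviations over 0.1 (range -0.217 to 0.305) and 3 matched their own number best. Few pairs thus resembled each other, but such correlations cannot exclude that the numbers pair some mice or follow the experiments.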
